A study of Rattus norvegicus with 6 samples.

Results

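The genes described are those of respiratory complex I, taken as every rat gene whose RefSeq symbol begins with Nduf and that has a probe on the array. The rule found 38 genes among the 15168 genes named on the array. They fall into 10 genes with the names Ndufs and Ndufv, 22 other subunits (Ndufa, Ndufab, Ndufb and Ndufc) and 6 assembly factors (Ndufaf). The annotation lists 56 protein-coding Nduf symbols, so not every gene of the complex was measured. The mRNA of hippocampal tissue was profiled on single-colour arrays, 1 array per tissue sample. The AD group (n = 3) was made up of male Sprague Dawley (SD) rats that had received oligomers of Aβ1–42 by injection into the cerebral ventricles. The Sham group (n = 3) consisted of rats of the same sex and strain in which vehicle alone was delivered to both lateral ventricles. The age in weeks and the interval between injection and tissue collection are not given in the sources used here, and the model rests on injected peptide rather than on an inherited mutation.

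Complex I is the first enzyme of the mitochondrial respiratory chain. It takes electrons from NADH, passes them along a chain of iron-sulfur clusters to ubiquinone and pumps protons across the inner mitochondrial membrane. Its catalytic core is shared with bacteria, the other subunits surround and stabilise that core, and assembly factors build the complex without staying in it. Neurons depend heavily on this chain for ATP, and the hippocampus is a region in which amyloid oligomers are often studied. The core subunits encoded in the nucleus carry the names Ndufs and Ndufv, but Ndufs4, Ndufs5 and Ndufv3 are not core subunits. Ndufa4 is now generally counted as a subunit of cytochrome c oxidase, and Ndufab1 also serves as the mitochondrial acyl carrier protein, so these 2 members reach beyond the complex. Another member, Ndufa10l1, is a like-named copy of Ndufa10 and was counted with the other subunits. The core subunits encoded in mitochondrial DNA were not analysed here.

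Nuclear genes of the respiratory chain are known for promoters with elements of the factors NRF1, GABPA (an ETS factor) and YY1. The promoters shown are those of the 4 genes that were called lower in AD under both scalings described below. Each is 200 bases long, runs 5′ to 3′ on the gene's own strand and ends 30 bases after the annotated start, with matches to any of the 3 searched motifs in capitals (RefSeq, assembly GRCr8). Ndufa2 lies at chr18:28631855-28632054 (minus strand), Ndufaf1 at chr3:127103991-127104190 (minus strand), Ndufaf5 at chr3:147961442-147961641 (plus strand) and Ndufb3 at chr9:67623247-67623446 (plus strand).
Ndufa2: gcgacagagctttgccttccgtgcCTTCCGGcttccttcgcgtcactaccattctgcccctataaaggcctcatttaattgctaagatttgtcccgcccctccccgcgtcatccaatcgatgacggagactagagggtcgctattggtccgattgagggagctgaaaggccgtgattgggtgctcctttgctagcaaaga
Ndufaf1: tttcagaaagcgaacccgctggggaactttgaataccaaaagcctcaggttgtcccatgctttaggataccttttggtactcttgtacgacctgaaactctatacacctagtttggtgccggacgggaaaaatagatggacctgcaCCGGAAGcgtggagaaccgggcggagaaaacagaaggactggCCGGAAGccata
Ndufaf5: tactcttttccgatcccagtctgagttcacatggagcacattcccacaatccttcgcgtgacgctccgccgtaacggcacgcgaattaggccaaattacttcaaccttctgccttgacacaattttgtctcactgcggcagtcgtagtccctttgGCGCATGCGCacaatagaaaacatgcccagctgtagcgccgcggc
Ndufb3: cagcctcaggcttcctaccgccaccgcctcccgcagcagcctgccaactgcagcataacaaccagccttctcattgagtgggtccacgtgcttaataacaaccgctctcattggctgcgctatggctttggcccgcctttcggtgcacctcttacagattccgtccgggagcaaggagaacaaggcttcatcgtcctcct

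The window of Ndufa2 held 1 ETS match on the opposite strand, and a YY1 match of the same promoter begins in the last bases of the stretch printed and is cut by its end, so it is not in capitals. Ndufaf1 had an ETS match on either side of its start. Ndufaf5 had NRF1 matches on both strands that overlap in 1 palindrome, centred -10.5 and -9.5 bases from the start, and Ndufb3 had no match to any of the motifs. Promoters of 300 bases (250 before and 50 after the start) were found for 35 of the 38 genes and searched on both strands. The NRF1 core GCGCANGCG was present in 10 of the 35 (28.6%, against 5.8% of all 33469 promoters in the table). The ETS core CCGGAAG was present in 8 (22.9%, against 8.75%) and the YY1 core AAGATGG in 7 (20%, against 7.01%), where its first base lay 2 to 26 bases after the start. At least 1 motif was found in 21 of the 35 promoters (60%, against 19.1% of all promoters), and in 8 of the 14 genes that were called lower in AD. Among the 21851 promoters of protein-coding genes the shares were higher, with 7.62% for NRF1, 10.7% for ETS, 7.29% for YY1 and 22.5% for at least 1 motif. These are matches of letters and were not tied to binding of a factor.

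A level is the log2 processed signal of a probe set against the 75th percentile of its array, which is 0 on this scale, and a difference of 1 is a 2-fold difference. Where a gene had several probes the one with the highest mean signal was used. Levels of different genes come from different probes and are not set against each other. All 38 genes were well above background on all 6 arrays, so all of them were tested, and 35 had a mean level at or above 0. That percentile stood at a processed signal of 795 to 932 on AD arrays and 429 to 755 on Sham arrays, with Sham replicate 3 the lowest. The p-values measure the spread between tissue samples, since the labels do not say which animal a sample came from. In bulk tissue, fewer cells of a type and less RNA per cell cannot be told apart.

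Of the 38 Nduf genes, 14 (36.8%) were lower in AD and 0 were higher at a limma adjusted p under 0.05 (Benjamini-Hochberg over 22820 probes), against 8.39% of all tested probes lower and 4.16% higher. At an unadjusted p under 0.05 there were 23 genes, all of them lower, against 18.5% of all tested probes lower. The median log2 change of the 38 genes was -0.34, against -0.01 over all tested probes, and 35 of the 38 changes were negative. The 14 called genes were 1.27 to 1.79 times lower in AD (log2 changes of -0.84 to -0.35, limma adjusted p of 0.0218 to 0.0486). For 27 genes, including all 14 that were called, the 3 AD values lay below all 3 Sham values, which held for 23.4% of all tested probes, and for 0 genes did they lie above (15.6%). With scan as a random block limma called 0 genes and 0% of all probes (17 genes and 16.1% of all probes at an unadjusted p under 0.05, either direction), all AD arrays having been scanned apart from the Sham arrays, so that group cannot be told apart from scan. The count was also 0 without AD replicate 1, 2 or 3 or Sham replicate 1 or 2 (17, 24, 18, 20 and 25 genes at an unadjusted p under 0.05, against 21.3%, 27.7%, 23.3%, 28.3% and 26.9% of all probes in either direction), and 15 without Sham replicate 3 (10.8% of all probes lower and 8.72% higher).

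**Figure D1:**
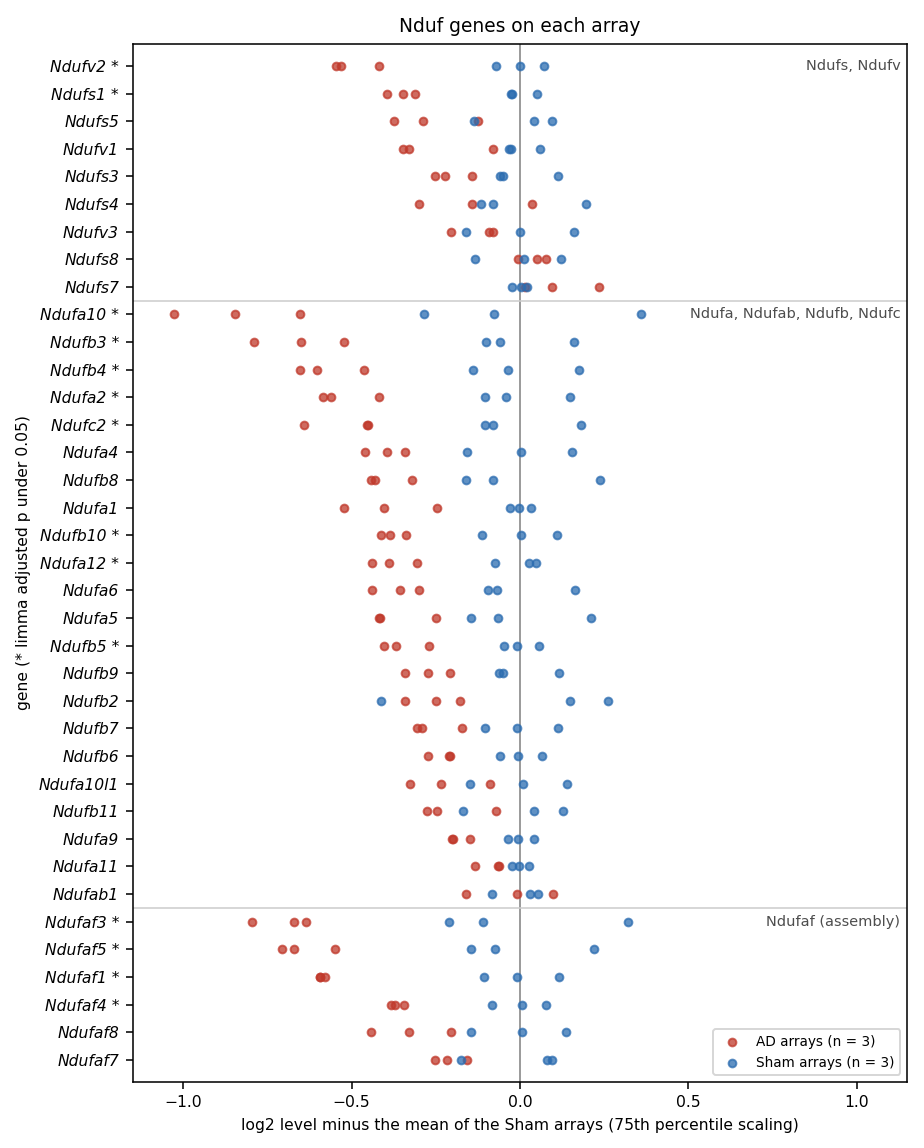
Level of 37 of the 38 Nduf genes on every array, as the log2 level minus the mean of the Sham arrays (x axis), with 1 row per gene, AD arrays in red and Sham arrays in blue. The asterisk marks the 14 genes with a limma adjusted p under 0.05, and for all 14 the red points lie left of the blue points.

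The Nduf genes have bright probes, and bright probes as a whole were lower in AD under this scaling. When the tested probes were sorted by mean level into 5 equal groups, the median log2 change was 0.06, 0.05, 0.04, -0.03 and -0.17 from the dimmest to the brightest group, and 32 of the 38 Nduf genes lay in the brightest. In that brightest group 18% of probes were called lower, and the Nduf genes in it had a median of -0.34, below the -0.17 of the group. Quantile normalization gives all arrays the same distribution, and under it the median of the brightest group was close to 0. The Nduf genes in that group then had a median of -0.15. Among the 7568 probes with a mean level at or above 0, 15.8% were lower and 2.56% higher, with a median of -0.13, and under quantile normalization 9.63% and 4.93%.

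**Figure D2:**
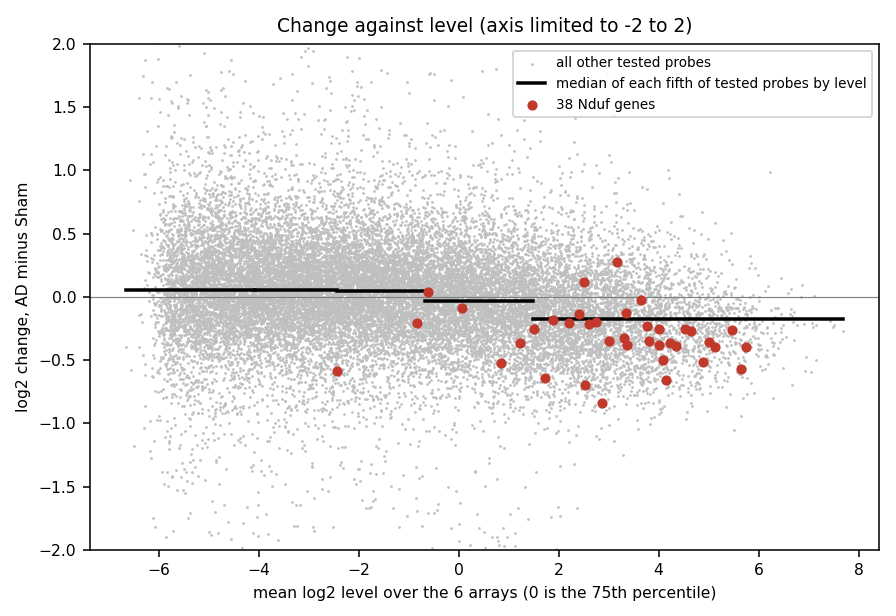
Log2 change of AD minus Sham (y axis) against the mean log2 level over the 6 arrays (x axis) for all tested probes (grey) and the 38 Nduf genes (red), with a black line at the median of each of the 5 groups of probes by level. Most red points lie below the line of the brightest group, at -0.17.

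Under quantile normalization 4 of the 38 Nduf genes stayed past the threshold, against 6.87% of all tested probes called lower and 4.27% higher. In the brightest group of probes, which holds 32 of the 38 genes, 9.68% were called lower under it. The 4 genes were Ndufa2, Ndufb3, Ndufaf1 and Ndufaf5, all of which were also called with the 75th percentile. Ndufb3 and Ndufaf5 were the only called genes among the 32 in the brightest group, a count not above the 9.68% of that group. Ndufa2 and Ndufaf1 lay in dimmer groups. The median of the 38 genes was -0.15 and 32 of the changes were negative. The 3 AD values lay below the 3 Sham values for 21 genes (21.8% of all tested probes) and above them for 2 genes (16.8%). Other settings gave 14 Nduf genes with median scaling (9.43% of all tested probes lower and 3.02% higher) and 7 with the percentile taken over detected probes (5.49% and 6.24%). Normexp background correction gave 8 (6% and 1.24%) and the log2 values that were deposited gave 4 (6.83% and 4.29%). Ndufa10 came closest to the threshold among the other genes, with a log2 change of -0.68 ± 0.16 (SE) and a limma adjusted p of 0.0502.

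**Figure D3:**
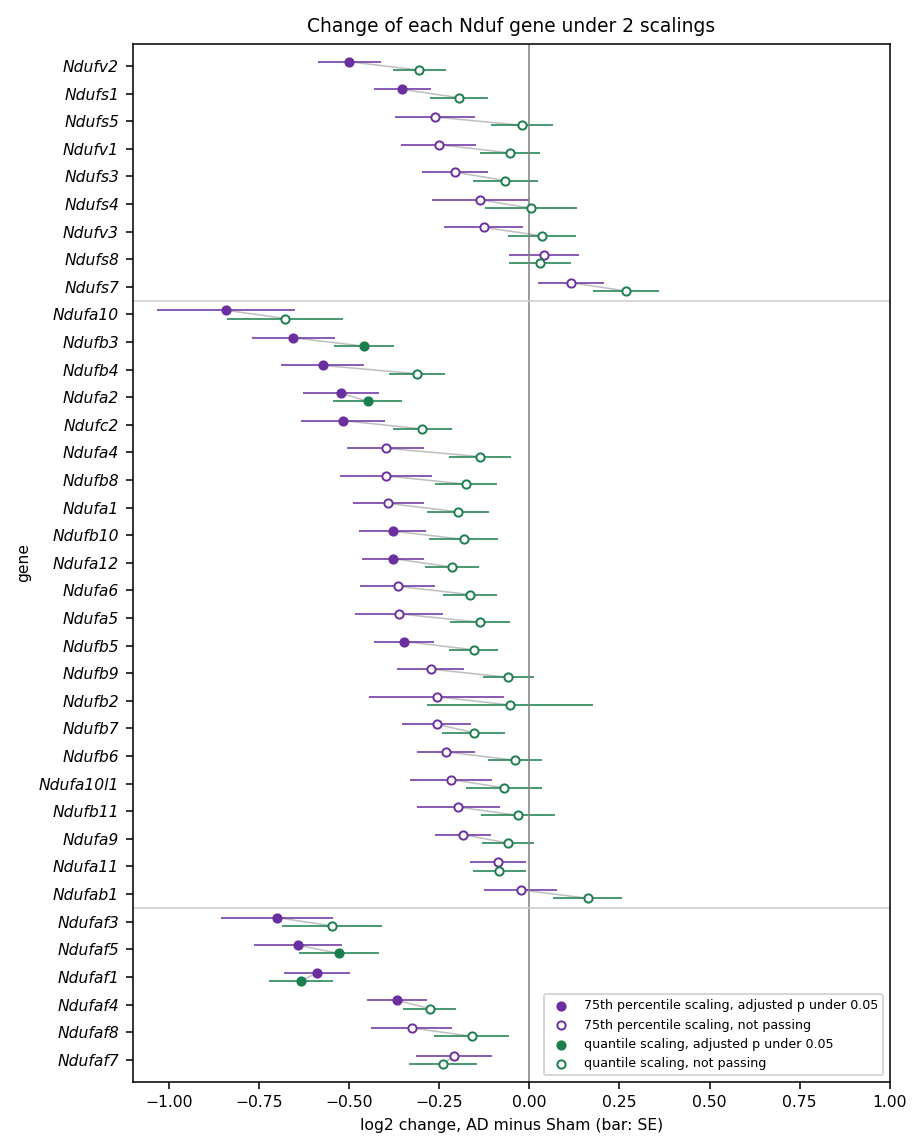
Log2 change of AD minus Sham with its SE (x axis) for 37 of the 38 Nduf genes under 75th percentile scaling (purple) and quantile scaling (green), filled where the limma adjusted p was under 0.05. Nearly all genes lie closer to 0 or further right under quantile scaling, and the 4 genes filled in both colours are Ndufa2, Ndufb3, Ndufaf1 and Ndufaf5.

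Among the core subunits, the 3 of the module that binds NADH and its flavin all had negative changes, 2 of which passed the test, a grouping made after the values were seen. Ndufv2, which holds an iron-sulfur cluster beside the flavin site, had levels of 3.81, 3.92 and 3.79 on AD arrays, against 4.34, 4.27 and 4.41 on Sham arrays, a log2 change of -0.50 ± 0.09 (SE, n = 3 per group, limma adjusted p = 0.0262). Ndufs1, the largest subunit of that module and the carrier of several iron-sulfur clusters, had 2.87, 2.79 and 2.84 in AD, against 3.16, 3.16 and 3.23 in Sham, a log2 change of -0.35 ± 0.08 (limma adjusted p = 0.0413). For both genes every AD array lay below every Sham array. Ndufv1, which binds NADH and the flavin, had 3.81, 4.06 and 3.80 in AD, against 4.11, 4.11 and 4.20 in Sham, with a log2 change of -0.25 ± 0.10 that did not pass (limma adjusted p = 0.162). Its AD values also lay below the Sham values, AD replicate 2 only narrowly.

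Of the core subunits of the quinone module, Ndufs3, Ndufs7 and Ndufs8 did not pass the test. Ndufs7, which carries the last iron-sulfur cluster before the quinone, had 2.69, 2.55 and 2.47 in AD, against 2.45, 2.47 and 2.43 in Sham, and Ndufs8, which carries the clusters ahead of it, had -0.57, -0.63 and -0.55 in AD, against -0.61, -0.50 and -0.76 in Sham. Their log2 changes were 0.11 ± 0.09 and 0.04 ± 0.10 (limma adjusted p = 0.434 and 0.804), with overlapping groups. Ndufs3, a subunit without a cluster that joins early in assembly, had 2.10, 2.07 and 2.18 in AD, against 2.27, 2.26 and 2.43 in Sham (-0.21 ± 0.09, limma adjusted p = 0.182). The change of Ndufs8 turned to -0.01 with median scaling, while that of Ndufs7 was 0.27 ± 0.09 under quantile normalization (limma adjusted p = 0.112).

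The other genes with these names, Ndufs4, Ndufs5 and Ndufv3, had log2 changes of -0.14 ± 0.13, -0.26 ± 0.11 and -0.13 ± 0.11, and none passed (limma adjusted p = 0.530, 0.168 and 0.474). Their AD and Sham values overlapped. Ndufs4, whose loss causes Leigh syndrome in humans, had 2.33, 2.50 and 2.17 in AD, against 2.67, 2.35 and 2.39 in Sham. Ndufv3 was measured by 3 probes, and the other 2 gave -0.32 and 0.18, so its direction depended on the probe. Over the 10 Ndufs and Ndufv genes 2 were called lower and 0 higher, with a median log2 change of -0.17. Of all tested probes 8.39% were called lower and 4.16% higher, and in the brightest group 18% and 1.56%. Under quantile normalization 0 of the 10 were called by limma (3 at an unadjusted p under 0.05, either direction, against 30.9% of all tested probes). The median was -0.0083. Those 3 were not all falls, since Ndufv2 was lower in AD and Ndufs7 higher.

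Of the 22 other subunits 8 were called lower and 0 higher, against 8.39% and 4.16% of all tested probes (18% and 1.56% in the brightest group). There were 22 negative changes (21 under quantile normalization) and the median log2 change was -0.36. Ndufa10, a subunit of the membrane arm that resembles deoxynucleoside kinases, had the largest fall of all members. Its levels were 2.45, 2.64 and 2.27 in AD, against 3.01, 3.22 and 3.66 in Sham, which gave -0.84 ± 0.19 (SE, limma adjusted p = 0.0421). The Sham values were spread widely, with replicate 3 highest, but all lay above the AD values. Ndufa2, a small subunit with a thioredoxin-like fold at the tip of the matrix arm, had 0.52, 0.69 and 0.55 in AD, against 1.0, 1.07 and 1.26 in Sham (-0.52 ± 0.10, limma adjusted p = 0.0330). Ndufa12, a subunit of the matrix arm, had 3.12, 3.25 and 3.17 in AD, against 3.48, 3.58 and 3.61 in Sham (-0.38 ± 0.09, limma adjusted p = 0.0424). For Ndufa2 and Ndufa12 the gap between the groups was wider than the range within either one. Under quantile normalization the changes of Ndufa2 and Ndufa12 were -0.45 (limma adjusted p = 0.0394) and -0.21 (0.117).

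Of the Ndufb and Ndufc genes, which encode small subunits of the membrane arm, 5 were called. Ndufb3 had 3.82, 3.95 and 3.68 in AD, against 4.37, 4.41 and 4.63 in Sham (-0.65 ± 0.12, limma adjusted p = 0.0269), and under quantile normalization -0.46 (0.0290). Ndufb4 had 5.28, 5.47 and 5.33 in AD, against 5.90, 5.79 and 6.11 in Sham (-0.57 ± 0.11, limma adjusted p = 0.0326). Both genes were lower on every AD array, while the second probe of Ndufb4 gave -0.20. Ndufc2 had 4.69, 4.69 and 4.51 in AD, against 5.04, 5.07 and 5.33 in Sham (-0.52 ± 0.12, limma adjusted p = 0.0409). Ndufb10 had 3.86, 3.78 and 3.81 in AD, against 4.09, 4.31 and 4.20 in Sham (-0.38 ± 0.09, limma adjusted p = 0.0486), but its dimmer probe gave 0.01. Ndufb5 had 3.61, 3.71 and 3.58 in AD, against 3.93, 3.97 and 4.04 in Sham (-0.35 ± 0.08, limma adjusted p = 0.0486). Sham replicate 3 was the highest array for Ndufb3, Ndufb4, Ndufb5 and Ndufc2. Ndufb4, Ndufc2, Ndufb10 and Ndufb5 did not pass under quantile normalization (-0.31, -0.30, -0.18 and -0.15).

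The 14 other subunits that were not called had log2 changes of -0.40 to -0.02. Ndufa1, a membrane subunit encoded on the X chromosome, had 4.14, 4.29 and 4.02 in AD, against 4.54, 4.57 and 4.51 in Sham, and lay just outside the threshold (-0.39 ± 0.10, limma adjusted p = 0.0535). Ndufa4 (-0.40 ± 0.11), Ndufa6 (-0.37 ± 0.10) and Ndufb8 (-0.40 ± 0.13) likewise had AD values below all Sham values without passing. Ndufb2 had 4.47, 4.31 and 4.40 in AD, against 4.91, 4.80 and 4.24 in Sham, where replicate 3 lay below every AD array. Ndufab1, the acyl carrier protein, had the change closest to 0 in this class, with 3.66, 3.76 and 3.51 in AD, against 3.72, 3.70 and 3.58 in Sham (-0.02 ± 0.10, limma adjusted p = 0.899), and its change was 0.16 under quantile normalization. Under that scaling 2 of the 22 other subunits were called and the median was -0.15. Of all tested probes 6.87% were called lower under it, and 9.68% of the brightest group, so the count lay near the latter share.

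Assembly factors were the class with the lowest median log2 change, -0.48, and 4 of 6 were called lower, against 8.39% of all tested probes. Ndufaf1, which helps to build the membrane arm as part of the assembly complex known as MCIA, had -2.72, -2.72 and -2.71 in AD, against -2.01, -2.14 and -2.24 in Sham (-0.59 ± 0.09, SE, limma adjusted p = 0.0218). It had the smallest adjusted p of the 38 genes, and the change was -0.63 under quantile normalization (limma adjusted p = 0.0211). Ndufaf5, which hydroxylates an arginine of Ndufs7, had 1.37, 1.49 and 1.33 in AD, against 1.90, 1.97 and 2.26 in Sham (-0.64 ± 0.12, limma adjusted p = 0.0304, quantile -0.53, 0.0381). Ndufaf3 and Ndufaf4 work as partners in the early assembly of the quinone module. Ndufaf3 had 2.23, 2.20 and 2.07 in AD, against 2.76, 2.66 and 3.19 in Sham (-0.70 ± 0.16, limma adjusted p = 0.0403), and Ndufaf4 had 1.03, 1.07 and 1.04 in AD, against 1.33, 1.42 and 1.49 in Sham (-0.37 ± 0.08, limma adjusted p = 0.0423). The AD and Sham values did not overlap for any of these 4 genes. For Ndufaf4, however, the 3 dimmer probes gave -0.15, 0.08 and 0.11.

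Ndufaf8, the partner of Ndufaf5, had 3.14, 3.27 and 3.03 in AD, against 3.61, 3.33 and 3.48 in Sham (-0.33 ± 0.11, limma adjusted p = 0.111). Ndufaf7, a methyltransferase, had -0.89, -0.99 and -0.95 in AD, against -0.64, -0.66 and -0.91 in Sham (-0.21 ± 0.10, limma adjusted p = 0.229). Neither passed, and for Ndufaf7 Sham replicate 3 lay among the AD values. The median of the assembly factors was -0.40 under quantile normalization, against -0.15 for the other subunits and -0.0083 for the Ndufs and Ndufv genes. Under it 2 of 6 assembly factors were called lower, against 6.87% of all tested probes. On single arrays the class medians relative to the Sham mean were -0.49, -0.45 and -0.51 in AD, against 0.01, -0.04 and 0.04 in Sham, for the assembly factors. They were -0.36, -0.29 and -0.40 in AD, against -0.04, -0.06 and 0.09 in Sham, for the other subunits. For the Ndufs and Ndufv genes they were -0.21, -0.09 and -0.22 in AD, against -0.01, -0.03 and 0.05 in Sham. AD replicate 2 was the AD array closest to Sham in each class, and no AD median overlapped the Sham medians under this scaling. The same held for the median of all 7568 tested probes with a mean level at or above 0. It was -0.14, -0.09 and -0.17 in AD, against -0.04, -0.04 and 0.07 in Sham, so the lack of overlap was not particular to the Nduf classes. The differences between the classes were not tested.

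**Figure D4:**
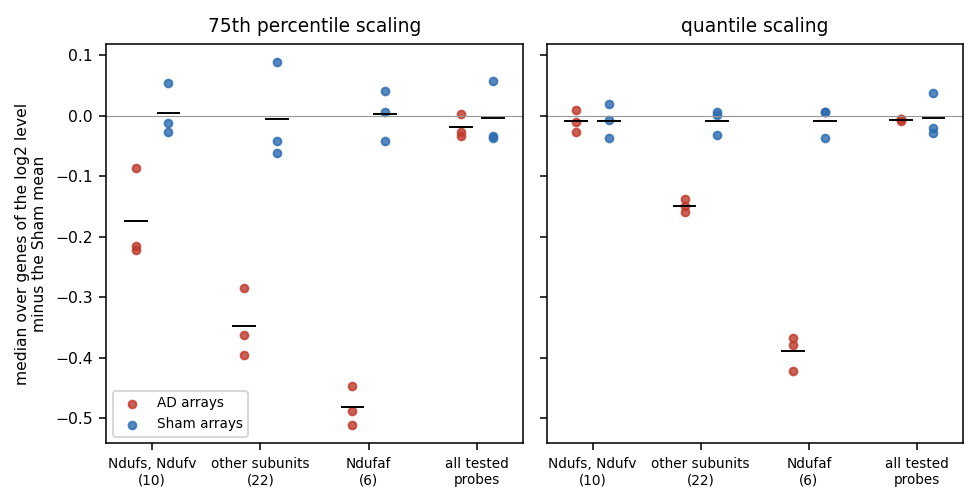
Median over the genes of each class of the log2 level minus the Sham mean (y axis), on each AD array (red) and Sham array (blue), under 75th percentile scaling (left) and quantile scaling (right), with black lines at the group means. The AD medians of the Ndufaf genes lie at -0.51 to -0.45 with the 75th percentile and at -0.42 to -0.37 with quantile scaling, while those of the Ndufs and Ndufv genes reach the Sham range under quantile scaling.

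The annotation holds pseudogenes or like-named genes for 18 of the 38 genes, 8 of them among the 14 called, so their probes may read more than 1 locus and their values are uncertain to that extent. Ndufb4 has the most copies (7 pseudogenes and 4 like-named genes), Ndufaf4 has 5 pseudogenes, Ndufa2 has 4, and Ndufb3 has 3 like-named genes. Ndufa10 has 1 like-named gene, Ndufa10l1, which is itself among the 38. Its log2 change was -0.22 ± 0.11 (limma adjusted p = 0.251), and -0.06 on its dimmer probe. Ndufaf1 and Ndufaf5 have none listed.

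Of 11 measured assembly factors of complex I that are not named Nduf, 5 were called lower and 0 higher, with 8 negative and 3 positive changes and a median log2 change of -0.30 (-0.18 under quantile normalization, with 1 called). Of all tested probes 8.39% were called lower, and 6.87% under quantile normalization. The positive changes, none of which passed, were those of Tmem126a (0.66 ± 0.26, limma adjusted p = 0.144), which turned to -0.21 under normexp correction, Timmdc1 (0.19 ± 0.15, 0.444; -0.11 under normexp) and Dmac2 (0.01 ± 0.09, 0.942; -0.08 under normexp). Tmem186, a member of the MCIA complex, had 1.20, 1.47 and 1.34 in AD, against 1.81, 2.07 and 1.83 in Sham (-0.56 ± 0.12, limma adjusted p = 0.0354). Nubpl, which delivers iron-sulfur clusters to the complex, had 0.29, 0.24 and 0.17 in AD, against 0.61, 0.92 and 0.73 in Sham (-0.52 ± 0.11, limma adjusted p = 0.0345). Acad9, an acyl-CoA dehydrogenase that works in MCIA, and Lyrm2, a protein of the LYR family, changed by -0.40 ± 0.10 and -0.37 ± 0.09 (limma adjusted p = 0.0486 and 0.0461). For these 4 genes all 3 AD values lay below all 3 Sham values, which held for 23.4% of all tested probes. Of the MCIA members measured, Tmem126b was also lower (-0.45 ± 0.11, limma adjusted p = 0.0498) and Ecsit did not pass (-0.30 ± 0.13, limma adjusted p = 0.173), both named after their values were seen.

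Among factors known to control genes of the respiratory chain, Ppargc1a, the coactivator of mitochondrial biogenesis, was higher in AD, with -2.22, -2.34 and -2.15, against -2.64, -2.61 and -2.79 in Sham (0.44 ± 0.10, limma adjusted p = 0.0402). Tfam, which packages and transcribes mitochondrial DNA, was lower, with 1.27, 1.30 and 1.28 in AD, against 1.54, 1.72 and 1.72 in Sham (-0.38 ± 0.09, limma adjusted p = 0.0445). They were the 2 genes called of the 11 regulators tested, against 8.39% of all tested probes lower and 4.16% higher. Under quantile normalization the change of Ppargc1a was 0.40 (limma adjusted p = 0.0460) and that of Tfam -0.28, which did not pass (0.0762). Neither passed under normexp correction, with 0.19 for Ppargc1a and -0.34 for Tfam (limma adjusted p = 0.251 and 0.0979). Factors of the motifs searched above did not pass, with log2 changes of -0.25 ± 0.20 for Nrf1, 0.09 ± 0.10 for Gabpa and 0.15 ± 0.08 for Yy1 (limma adjusted p = 0.426, 0.551 and 0.247).

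Of 35 listed genes of complexes II to V, 5 were called lower and 0 higher, with a median log2 change of -0.28 (-0.06 under quantile normalization, with 1 called). Of 17 further genes of the mitochondrial membranes and matrix, 7 were lower and 0 higher, with a median of -0.37 (-0.21 under quantile normalization, with 1 called). Over all tested probes 8.39% were called lower and 4.16% higher, and in the brightest group 18% were lower. Under quantile normalization 6.87% of all tested probes and 9.68% of the brightest group were called lower. No difference between these lists and the Nduf genes was tested.

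Of 10 measured neuron markers 6 were called lower and 0 higher (median log2 change -0.43, and -0.26 with 4 called under quantile normalization), and their summed signal, in multiples of the 75th percentile, was 89.5 to 98.9 on AD arrays and 116.6 to 137.4 on Sham arrays. For GABAergic interneuron markers 5 of 10 were lower and 0 higher (median -0.73, and -0.56 with 4 called under quantile normalization), with sums of 44.3 to 47.7 in AD and 74.7 to 80.1 in Sham. Neither pair of ranges overlapped. Of all tested probes 8.39% were called lower and 4.16% higher, and under quantile normalization 6.87% and 4.27%. In contrast, 4 of 9 oligodendrocyte markers were higher and 0 lower (median 0.27, and 0.42 with 4 called under quantile normalization). Their sums were not higher in AD, with overlapping ranges of 105.9 to 125.6 in AD and 115.6 to 167.5 in Sham. Mbp, the marker with the brightest probe, had the only negative change of the 9 (-0.33 ± 0.21, limma adjusted p = 0.327). Limma called 0 of 8 astrocyte markers, 0 of 8 microglia markers and 0 of 8 choroid plexus markers (1, 1 and 5 at an unadjusted p under 0.05, against 31.3% of all tested probes, either direction). The choroid plexus genes nevertheless had a median of 2.53 and sums of 82.1 to 143.6 in AD, against 27.3 to 103.0 in Sham. The part of cell composition in the values of the Nduf genes was not tested.

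**Figure D5:**
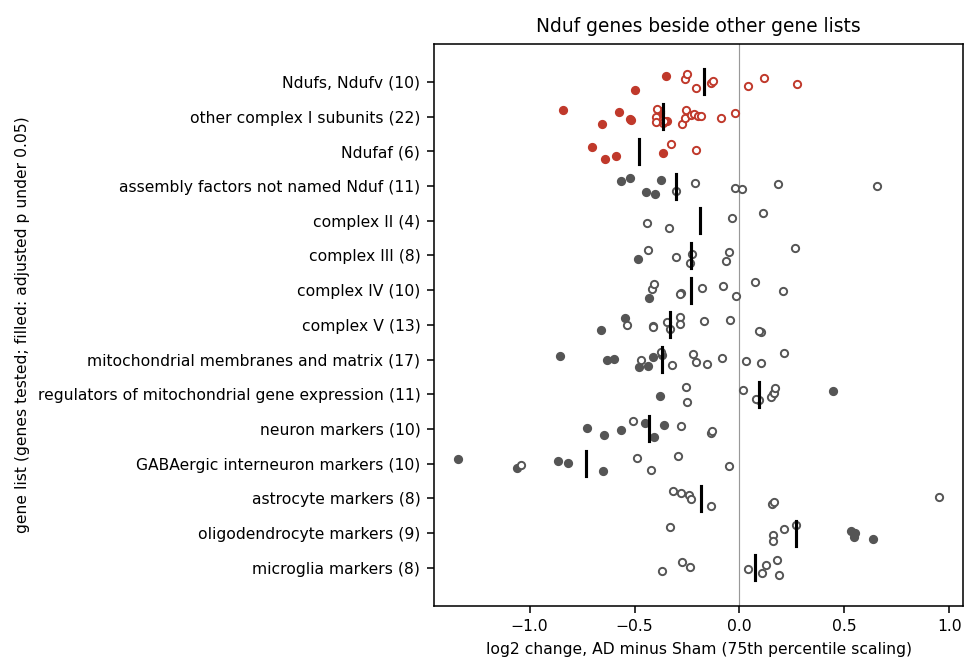
Log2 change of AD minus Sham (x axis, 75th percentile scaling) of each gene in the 3 Nduf classes (red) and in other gene lists (grey), filled where the limma adjusted p was under 0.05, with a black bar at each list's median. The medians of the Nduf classes run from -0.48 to -0.17, that of the GABAergic interneuron markers is -0.73 and that of the oligodendrocyte markers 0.27.

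At the thresholds that the study's methods name, a fold change of at least 2 with an unadjusted p under 0.05, 0 of the 38 genes passed by the methods' t-test or by limma, against 1.44% and 2.25% of all tested probes. The largest size of a log2 change among the members was 0.84, that of Ndufa10.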

How the data were processed

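Hippocampal mRNA of 3 AD and 3 Sham samples was measured with 1 Agilent Rat 4x44K array (single colour) each. The authors deposited scanner output, made with Agilent Feature Extraction 11.0.1.1 per the file headers, that holds for each of 44254 spots a background-subtracted intensity on a linear scale with quality flags. They also deposited a table of log2 values whose scaling is not stated. Its 6 columns share a median of 6.57 and its values follow those of quantile normalization closely. Its columns for AD replicates 2 and 3 match the scanner values of the other one (r across probes of 0.999 and 0.994), so replicate numbers here are those of the scanner output and the groups are unaffected.

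Control spots and outlier spots (400 to 559 per array) were left out, 0 spots were saturated, and spots of a probe were averaged, which left 30367 probes. Levels were log2 processed signals relative to the 75th percentile of the array. A probe entered the test when 3 or more of the 6 arrays had it well above background (22820 probes). Of 26997 probe accessions 15252 matched RefSeq genes (GRCr8), which named 59.29% of probes. The array design uses an older build, and the coordinates given are those of RefSeq. The comparison of AD with Sham used limma 3.58.1 (lmFit, eBayes; R 4.3.3) with no covariate. Its two-sided p-values were adjusted after Benjamini and Hochberg across the 22820 probes, with calls at 0.05, and the procedure was tested on simulated data. The number of arrays limits the precision.

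Over probes, Pearson's r between arrays was 0.988 to 0.994 inside the AD group, 0.979 to 0.993 inside the Sham group and 0.976 to 0.987 between them. The AD arrays were scanned together, a pair of Sham arrays (replicates 1 and 2) in another scan of that day, and Sham replicate 3 alone on a different day.

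The members, gene lists and tests were chosen with earlier results of these data known, and no list was given a test of its own. Genes named are those called under either scaling, the core subunits, the 3 largest rises and falls, and up to 4 called members of other lists (otherwise up to 2 with the largest change). The values of 1 member are not reported here, although the counts and medians include it. Other genes are named to account for the rest of a class. Alternatives were other scalings, normexp background correction (offset 50, on the median signal, since the files used here hold no mean signal), the deposited log2 table, other filters on dim probes, the mean over a gene's probes, leaving out each array, replicate, scan (duplicateCorrelation, statmod 1.5.0), scan day and slide position as blocks, array weights and the methods' t-test.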

Additional observations from a re-analysis of the deposited data

How the results depend on the processing

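The sign of the change of all 14 called Nduf genes was negative in all 21 alternatives, and the count called higher was 0 in each. The count called lower and the medians moved. The alternatives are not independent of each other. Other filters on dim probes, the replicate and slide position blocks and the methods' t-test leave the log2 changes as they were, so the sign could not differ there. Scan day as a fixed block gave the same values as leaving out Sham replicate 3, the only array of its day. With the 75th percentile, 14 genes were called lower, against 4 under quantile normalization and 4 with the deposited log2 table. The percentile taken over detected probes gave 7 and normexp correction 8. The methods' t-test after Benjamini-Hochberg adjustment gave 7 (1266 of all 22820 probes lower and 579 higher). Array weights gave 28, but with them 5326 of all 22820 probes were called lower and 4557 higher. Quantile normalization within the first scan day, an alternative chosen after seeing the data, gave 8 (2162 of all probes lower and 1887 higher). Limma called 0 without a filter on dim probes (22 at an unadjusted p under 0.05, against 23.4% of all probes, lowest adjusted p 0.0531), 0 with scan as a random block (17, against 16.1%, within-block correlation 0.492) and 0 with slide position as a block (21, against 28.4%). Over the fits without 1 array the count ran between 0 and 15, the 15 being without Sham replicate 3. The cause of these differences was not tested.

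AD and Sham share replicate numbers. Deviations of same-numbered arrays correlated at 0.028, 0.072 and 0.138, and those of differently numbered arrays at -0.119 to 0.064. With so few arrays these values cannot settle whether the numbers pair the samples. With the replicate block limma called 0 Nduf genes lower (18 at an unadjusted p under 0.05, against 28.4% of all probes, lowest adjusted p 0.0824) and 0 of all probes.

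The median log2 change of the 38 genes was -0.15 under quantile normalization, -0.25 over detected probes, -0.15 in the deposited table, -0.14 with quantile normalization within the first scan day, -0.27 as the mean over probes, and -0.35 to -0.29 over the fits without 1 array. That of the Ndufs and Ndufv genes was -0.0083 (quantile), -0.088 (detected probes), -0.0064 (deposited table) and -0.035 (quantile, first scan day), and -0.22 to -0.16 without 1 array. That of the other subunits was -0.15 (quantile), -0.28 (detected probes), -0.15 (deposited table) and -0.14 (quantile, first scan day), and -0.39 to -0.30 without 1 array. That of the Ndufaf genes was -0.40 (quantile), -0.53 (median scaling), -0.39 (detected probes), -0.40 (deposited table), -0.43 (scan day as a fixed block), -0.43 (array weights) and -0.36 (quantile, first scan day), and -0.50 to -0.43 without 1 array.

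Over all tested probes, 33.1% of calls were higher in AD, against 53.2% over detected probes, 44.7% within the first scan day, 24.3% with median scaling and 17.2% under normexp correction, where the median of all probes was -0.15. All 14 called genes were well above background on all 6 arrays.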

Other observations

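Gene lists of other cell types that the report leaves out contained a few genes that were higher in AD, as were 4.16% of all tested probes. Among oligodendrocyte precursor markers 2 of 6 were higher and 0 lower, Olig1, a transcription factor of the lineage (log2 change 0.67 ± 0.10, SE, limma adjusted p = 0.0209), and C1ql1 (0.57 ± 0.09, limma adjusted p = 0.0213). Among endothelial and pericyte markers 2 of 7 were higher and 0 lower, Abcc9, a channel subunit of pericytes (0.99 ± 0.12, limma adjusted p = 0.0183), and Cldn5, a tight junction protein (0.42 ± 0.09, limma adjusted p = 0.0342). Of 7 skeletal muscle markers 1 was higher and 0 lower, Myl11 (2.53 ± 0.59, limma adjusted p = 0.0454). Its AD levels were uneven, with -2.05, -2.41 and -0.06. Myl11 did not pass under quantile normalization or normexp correction (limma adjusted p = 0.0514 and 0.0790). C1ql1 and Cldn5 did not pass under normexp correction (limma adjusted p = 0.109 and 0.0514), while Olig1 and Abcc9 passed under both. The summed signal of the muscle markers, in multiples of the 75th percentile, was 1.1 to 5.05 on AD arrays and 0.612 to 0.888 on Sham arrays. Of 4 erythroid markers 0 passed. The summed signal of the erythroid markers was 6.46 to 13.1 in AD and 11.4 to 67.8 in Sham, with Sham replicate 3 highest.

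By complex, limma called lower 0 of 4 genes of complex II, 1 of 8 of complex III, 1 of 10 of complex IV and 3 of 13 of complex V, against 8.39% of all tested probes. The median log2 changes were -0.19, -0.23, -0.23 and -0.33. Called were Uqcr10 of complex III (-0.48 ± 0.11, limma adjusted p = 0.0395) and Cox7b of complex IV (-0.43 ± 0.09, limma adjusted p = 0.0369). In complex V they were Atp5f1a, the alpha subunit of ATP synthase (-0.55 ± 0.08, limma adjusted p = 0.0204), Atp5pb (-0.66 ± 0.11, 0.0229) and Atp5pd (-0.41 ± 0.09, 0.0392). Under quantile normalization only Atp5pb passed (-0.42, limma adjusted p = 0.0297), while Atp5f1a did not (-0.31, 0.105). Vdac2, a channel of the outer mitochondrial membrane, had 1.38, 1.51 and 1.25 in AD, against 2.33, 2.38 and 2.0 in Sham (-0.85 ± 0.13, limma adjusted p = 0.0223), a change of about the size of that of Ndufa10.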
